A study of Homo sapiens with 38 samples.

Results

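Non-transfected (NT) HCT116 cells were compared with cells transfected with the non-targeting duplex siCTRL#1, so that transfection and this duplex are seen without depletion of a target. All libraries of these 2 conditions were used, 4 NT libraries (replicates 1 to 4) and 5 siCTRL#1 libraries (replicates 1 to 5), that is 9 of the 38 libraries of the series, and each of the 12627 genes in the table was examined in both directions. HCT116 is a human colorectal carcinoma line of epithelial origin. The siCTRL#1 cells received the duplex at 60 nM with Lipofectamine RNAiMAX and were collected 72 h later, whereas the NT cells were not transfected, so the part of the reagent and that of the duplex cannot be told apart in this comparison. The labels name no transgene or engineered allele, and every culture came from the same line. The study's other conditions depleted VPS4A, VPS4B or both, the paralogous ATPases that remodel ESCRT-III filaments at membranes.

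Both other transfected conditions used here served only to ask which changes recurred. The siVPS4A#2 cells (4 libraries) received 30 nM of a duplex against VPS4A together with 30 nM of siCTRL#1, and the siCTRL#2 cells (4 libraries) received another non-targeting duplex, for which the sources used here give a range of amounts for controls in general but no amount for these libraries. All 3 transfected conditions were set against the same 4 NT libraries. The replicate number was also the label of the batch (a to e), and siCTRL#1 replicate 5 had no NT library in its batch. The labels do not say how far cultures of one batch were independent of each other, so the p-values measure the spread between these samples.

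Small interfering RNAs (siRNAs) are short RNA duplexes of which 1 strand is loaded into an Argonaute protein, and the loaded complex cleaves a fully matched transcript. A loaded strand can also act like a microRNA: the short stretch near its 5′ end, called the seed, pairs with complementary letters in 3′ untranslated regions, and the paired transcripts are destabilized through the GW182 (TNRC6) proteins. Cationic lipid carriers enter cells through endosomes, and double-stranded RNA can in addition be met by innate sensors that induce interferon-stimulated genes.

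RNA was read with an amplicon panel, so a value counts reads of about 1 amplicon per gene. NT libraries held 7206744 to 9314802 reads and siCTRL#1 libraries 5801458 to 10029811, and values are given as CPM (reads scaled to a library of 1000000 reads) after scaling by trimmed mean of M-values. A count of 3 reads corresponded to at most 0.517 CPM in the 9 libraries. VPS4A, the gene depleted elsewhere in the series, was at 325, 200.2, 248 and 216 CPM in NT replicates 1 to 4 and at 197, 172, 179, 191 and 206 in siCTRL#1 replicates 1 to 5, a log2 fold change of -0.31 ± 0.29 (standard error) that did not pass the test (limma, adjusted p = 0.564), and it was at 5.86, 6.20, 8.85 and 10.4 in the siVPS4A#2 libraries. VPS4B was at 19.9, 16.2, 28.8 and 23.6 in NT and 23.8, 20.1, 16.4, 18.1 and 24.5 in siCTRL#1 (adjusted p = 0.782, limma). NT replicate 1 correlated less with the other NT libraries (r = 0.483 over 9555 genes, as deviations from the mean of the 17 libraries of these 4 conditions) than the other 3 NT libraries did (0.610 to 0.654). Without NT replicate 1 the calls of 22 genes named below were lost. They were NFKB1, MVD, PMVK, CTSA, H3C12, H2AC12, E2F2, GINS3, MCM5, KIF20A and CHAC1. The others were SDF2L1, SEL1L, ENO2, NIP7, LAMA5, COL1A1, CHMP3, SNF8, CHMP4C, EEA1 and FLOT2.

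Markers of the epithelial origin were detected in every library. Of 15 epithelial markers, 14 were among the genes analysed and their summed level was 5131 to 5376 CPM in NT and 4947 to 7589 in siCTRL#1. Leukocyte markers (6 of 18 among the genes analysed) summed to 13.4 to 17.2 in NT and 15.04 to 19.7 in siCTRL#1, endothelial markers (5 of 12) to 3.19 to 6.12 and 4.02 to 5.35, and none of these 11 genes was called. Mesenchymal and fibroblast markers (6 of 17) summed to 32.2 to 39.5 in NT and to 42.8 to 96.0 in siCTRL#1, without overlap, and are described further on.

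Transfection with siCTRL#1 was accompanied by higher levels of 480 genes and lower levels of 446. Called genes had to pass both a 1.5-fold threshold and an adjusted p threshold of 0.05 (limma with the replicate number as a block, Benjamini-Hochberg over all genes). Fold changes are on the scale of log2(CPM + 1), which understates the change of genes with few reads. The called genes were 7.33% of the 12627 genes in either direction, 3.80% higher and 3.53% lower. The split depended on the scaling: without a scaling factor 655 genes were higher and 314 lower. The median log2 fold change of all genes was -0.003 and the median absolute change 0.21, so the typical gene moved little. Of the called genes, 90 higher and 71 lower ones differed at least 2-fold. The libraries of the 2 conditions did not overlap for 387 of the 480 higher and 356 of the 446 lower genes, whereas over all genes they did not overlap with siCTRL#1 higher for 8.17% and with siCTRL#1 lower for 7.86%. The genes were called on these same libraries, so the larger share without overlap among them follows in large part from that choice. Without NT replicate 1 the counts were 393 higher and 323 lower.

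The largest rises were seen for genes of diverse function. TNNC1, which encodes cardiac and slow skeletal troponin C, was at 9.25, 8.97, 9.28 and 10.1 CPM in NT replicates 1 to 4 and 48.8, 39.3, 63.9, 57.98 and 32.3 in siCTRL#1 replicates 1 to 5, a 4.81-fold difference (log2 2.27 ± 0.31, adjusted p = 8.53e-06, limma). PRSS23, a secreted serine protease, rose from 3.56, 8.61, 6.06 and 5.09 to 20.7, 20.8, 31.9, 16.1 and 18.3 (log2 1.71 ± 0.29, adjusted p = 0.000153, limma). The genes of this paragraph were picked among those with separate groups, so siCTRL#1 exceeded NT in each of the 4 shared batches by that choice. SLC1A3, a glutamate and aspartate transporter, rose from 31.3, 44.01, 49.6 and 43.2 to 109.7, 155, 116, 129.6 and 118 (log2 1.603 ± 0.21, adjusted p = 3.52e-06, limma). OSTM1, a subunit of the lysosomal chloride/proton exchanger ClC-7, rose from 9.39, 9.20, 15.1 and 8.78 to 24.3, 44.97, 38.02, 25.8 and 45.3 (log2 1.59 ± 0.21, adjusted p = 3.41e-06, limma). The remaining 8 of the 12 largest rises with separate groups were MYBPH, TRIM6, BMF, TP53INP2, GCAT, IL1RAP, VIM and SCML2. BMF encodes a BH3-only protein that antagonizes BCL-2 and rose 3.06-fold, TP53INP2 encodes an autophagy factor and rose 3.06-fold, and IL1RAP encodes the accessory chain of the interleukin-1 receptor and rose 2.97-fold. TRIM6, an E3 ubiquitin ligase, rose 3.17-fold, GCAT, a mitochondrial enzyme of threonine catabolism, 3.03-fold, and SCML2, a Polycomb-group protein, 2.83-fold. MYBPH, a myosin-binding protein, was at no more than 3 reads in each NT library (0, 0.236, 0.247 and 0.325 CPM) and at 1.51, 4.43, 15.2, 1.15 and 7.44 in siCTRL#1, a range too wide for a fold change to be meaningful.

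The largest falls included a receptor and several signalling and housekeeping genes. MET, the receptor tyrosine kinase for hepatocyte growth factor, fell from 263, 227, 180.2 and 242 CPM in NT replicates 1 to 4 to 58.7, 50.7, 34.1, 57.1 and 45.3 in siCTRL#1 replicates 1 to 5, 4.22-fold lower (log2 -2.08 ± 0.35, adjusted p = 0.000141, limma). SUSD2, a sushi-domain membrane protein, fell from 106, 98.5, 99.7 and 79.4 to 30.9, 25.4, 16.6, 28.8 and 23.1 (log2 -1.94 ± 0.18, adjusted p = 1.26e-08, limma). DKK1, a secreted inhibitor of Wnt signalling, fell from 31.2, 33.9, 37.5 and 30.998 to 9.37, 10.5, 6.93, 6.75 and 10.4 (log2 -1.76 ± 0.35, adjusted p = 0.00083, limma). As with the rises, the genes of this paragraph were picked among those with separate groups, so no siCTRL#1 library reached the lowest NT library by that choice. AKAP12, a scaffold for protein kinase A, fell from 399, 338, 260.4 and 365 to 115, 122, 98.3, 117 and 144 (log2 -1.54 ± 0.16, adjusted p = 1.03e-07, limma), and PTPMT1, the mitochondrial phosphatase that makes phosphatidylglycerol, fell from 71.3, 83.9, 74.3 and 66.7 to 20.2, 17.9, 20.95, 25.3 and 20.3 (log2 -1.76 ± 0.24, adjusted p = 7.12e-06, limma). BOD1, a regulator of chromosome biorientation, was 3.51-fold lower, KCTD18 2.99-fold, MRM1, a mitochondrial rRNA methyltransferase, 2.96-fold, GGT5, a gamma-glutamyltransferase, 3.22-fold, and ARL14EPL 3.79-fold. LCN2, the iron-siderophore binding protein lipocalin-2, varied widely in NT (39.1, 5.66, 13.6 and 4.55) and lay at 3.18, 0.837, 2.70, 4.31 and 1.69 in siCTRL#1 (log2 -1.904 ± 0.33, adjusted p = 0.000153, limma). Without NT replicate 1 the log2 fold change of LCN2 was -1.44 (adjusted p = 0.00266, limma). RPL17, a ribosomal protein with near-identical copies elsewhere in the genome so that its reads are uncertain, was 3.08-fold lower from a low level (5.83, 5.55, 8.29 and 5.31 in NT).

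**Figure D1:**
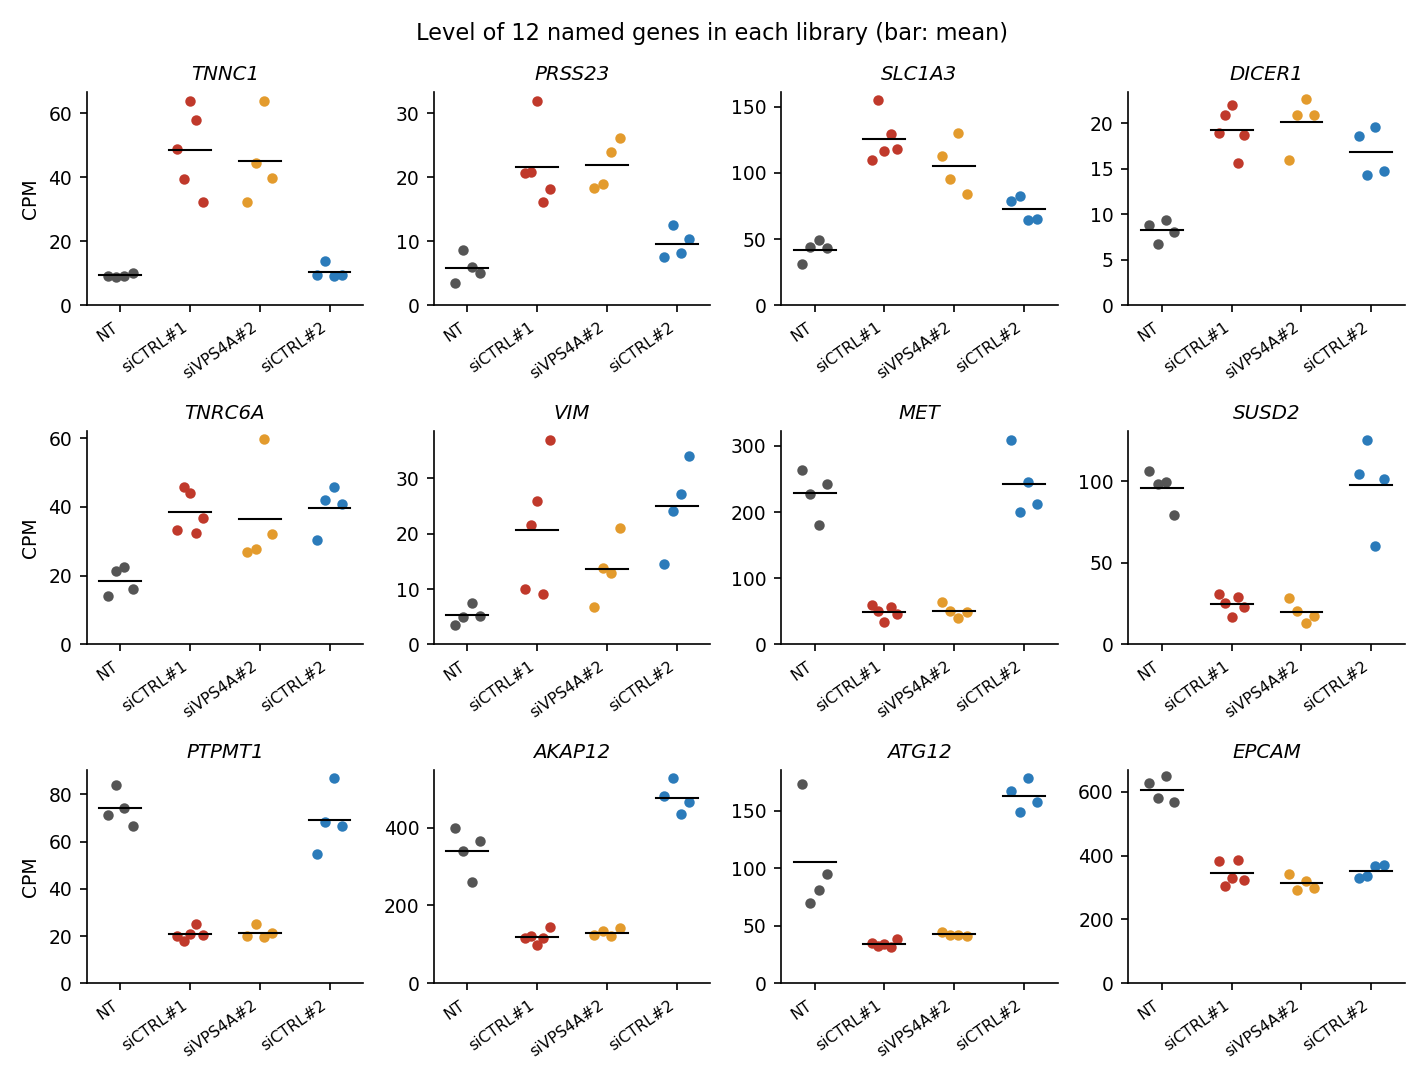
CPM (y axis, from 0) of 12 genes in each library of NT (grey), siCTRL#1 (red), siVPS4A#2 (orange) and siCTRL#2 (blue), with 1 point per library and a bar at the mean. MET, SUSD2, PTPMT1, AKAP12 and ATG12 are low in siCTRL#1 and siVPS4A#2 but not in siCTRL#2, whereas EPCAM is low and DICER1 and TNRC6A high in all 3 transfected conditions.

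It was next asked how many of these changes recurred in other transfected cells. In siVPS4A#2 against NT, 799 genes (6.33%) were called, 400 higher (3.17%) and 399 lower (3.16%). Of the 480 genes higher with siCTRL#1, 266 were also higher with siVPS4A#2 (55.4% of the siCTRL#1 list and 66.5% of the siVPS4A#2 list), and of the 446 lower genes 244 were lower there (54.7% and 61.2%). In siCTRL#2 against NT, 1883 genes (14.9%) were called, 648 higher (5.13%) and 1235 lower (9.78%). Of the genes higher with siCTRL#1, 153 were also higher with siCTRL#2 (31.9% and 23.6%), and of the lower ones 122 (27.4% and 9.88%), while 20 genes were called in the opposite direction. These comparisons share the NT libraries, and siVPS4A#2 cells also contained siCTRL#1. In all 3 comparisons 105 genes were higher (0.832% of all genes) and 70 lower (0.554%). A direct comparison of siCTRL#1 with siCTRL#2, added after seeing the data, tested the difference between the 2 non-targeting duplexes: it called 1946 genes (15.4%), 1292 higher with siCTRL#1 (10.2%) and 654 lower (5.18%). Of the genes called between siCTRL#1 and NT, 161 of the higher and 169 of the lower ones also differed from siCTRL#2 in the same direction.

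MET is an example of a fall that differed between the duplexes. It was at 63.7, 50.5, 40.3 and 48.8 CPM in siVPS4A#2 replicates 1 to 4 and at 309, 200.2, 246 and 212 in siCTRL#2 replicates 1 to 4, and siCTRL#1 was lower than siCTRL#2 by -2.15 ± 0.35 on the log2 scale (adjusted p = 1.97e-05, limma). SUSD2 was at 28.6, 20.2, 12.9 and 17.2 in siVPS4A#2 and 105, 125, 60.2 and 102 in siCTRL#2 (siCTRL#1 against siCTRL#2 -1.93, adjusted p = 3.59e-10, limma). Both genes were far below NT in siVPS4A#2, whereas the siCTRL#2 libraries ranged around the NT values. PTPMT1, DKK1, KCTD18, RPL17 and AKAP12 had the same pattern, with log2 fold changes against NT from -0.78 to -1.74 with siVPS4A#2 and from -0.11 to 0.497 with siCTRL#2, and each was lower with siCTRL#1 than with siCTRL#2 (log2 -2.04 to -1.64, all called). ATG12, whose product is the ubiquitin-like modifier conjugated to ATG5 in autophagosome formation, was at 173, 69.8, 81.4 and 95.2 in NT, 35.3, 32.2, 34.3, 31.7 and 38.1 in siCTRL#1, 44.6, 42.2, 42.3 and 40.96 in siVPS4A#2 and 167, 149, 178 and 158 in siCTRL#2, lower than NT with siCTRL#1 (log2 -1.49 ± 0.22, adjusted p = 2.09e-05, limma) and higher with siCTRL#2 (log2 0.72 ± 0.23, adjusted p = 0.0196, limma). Among the largest rises TNNC1, MYBPH, PRSS23, BMF, TP53INP2, GCAT and SCML2 were called with siVPS4A#2 but not with siCTRL#2, and each was higher with siCTRL#1 than with siCTRL#2 (log2 0.99 to 2.14). TRIM6, SLC1A3, OSTM1 and IL1RAP rose in all 3 comparisons but rose more with siCTRL#1 than with siCTRL#2 (log2 difference 0.81 to 0.86, all called).

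The letters of the 3′ untranslated regions were then compared between called genes. All 4096 words of 6 bases were counted in the 3′ untranslated regions of 12301 genes (GENCODE annotation on GRCh37, 1 transcript per gene), and the word most in excess among the genes lower with siCTRL#1 was GACGTA. It was present in 84 of 432 lower genes (19.4%), in 553 of all 12301 genes (4.496%) and in 11 of 476 higher genes (2.31%). Because the word was picked as the most extreme one on these genes, the counts describe them and carry no test. Its reverse complement TACGTC was in 4.17% of the lower and 4.33% of all genes. GACGTA shares letters with the words ranked next, TGACGT (17.1% against 9.23%), AGACGT (16.7% against 9.67%) and ACGTAC (10.4% against 5.28%), which overlap it.

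The 3′ untranslated regions around this word are shown for 10 of the 12 genes with the largest falls among those that hold it. Each window runs 5′ to 3′ on the strand of the gene with the word in capitals, and the coordinates are those of GRCh37:
MET, chr7:116437643-116437668 (plus strand): tggttttgtcGACGTAaacatttaaa
PTPMT1, chr11:47593262-47593287 (plus strand): gcccagacttGACGTAacagaaatgt
PYGO2, chr1:154930565-154930590 (minus strand): atgctgtcagGACGTAtcttcttcat
PDCD6, chr5:315048-315073 (plus strand): tggaatatgtGACGTAagcaataaag
BANF1, chr11:65771346-65771371 (plus strand): actcacctccGACGTActccggggtc
ITPRID2, chr2:182794431-182794456 (plus strand): attttaaaaaGACGTAcatagaaact
MTAP, chr9:21862452-21862477 (plus strand): taaaaatacgGACGTActttgtgctg
DPYSL3, chr5:146773085-146773110 (minus strand): ttgtgttgatGACGTAcgttatttcc
TOMM20, chr1:235274871-235274896 (minus strand): taatctctgaGACGTAaatatgtgag
WSB1, first copy, chr17:25639475-25639500 (plus strand): tgtttttaaaGACGTAgaagatttat
WSB1, second copy, chr17:25640191-25640216 (plus strand): tgtcatccaaGACGTAgagcttgaat
All 11 windows lie in exonic 3′ untranslated sequence. In these genes the word began between 90 bases (first copy in WSB1) and 1475 bases (MET) after the stop codon.

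These 10 genes fell with both conditions that contained siCTRL#1. Besides MET and PTPMT1 they were PYGO2, a nuclear co-activator of Wnt signalling, PDCD6, a calcium-binding partner of ESCRT proteins also called ALG-2, BANF1, the barrier-to-autointegration factor of the nuclear envelope, ITPRID2, MTAP, the enzyme that recycles methylthioadenosine, DPYSL3, a cytoskeletal phosphoprotein, TOMM20, the import receptor of the outer mitochondrial membrane, and WSB1, an ubiquitin ligase adaptor. TOMM20 was at 509, 457, 384 and 476 CPM in NT, 219, 174, 167, 231 and 181 in siCTRL#1, 283, 264, 180.1 and 227 in siVPS4A#2 and 461, 373, 344 and 343 in siCTRL#2. PYGO2 was at 35.9, 33.98, 42.5 and 42.5 in NT, 12.2, 17.8, 11.8, 11.5 and 19.96 in siCTRL#1, 15.5, 11.6, 16.3 and 13.2 in siVPS4A#2 and 43.97, 31.4, 38.1 and 45.5 in siCTRL#2. PDCD6 was at 129.8, 139, 142 and 94.4, 46.5, 52.4, 39.7, 48.8 and 46.5, 63.5, 64.1, 35.97 and 52.5 and 99.97, 156, 99.6 and 152, in the same order. For PYGO2 and PDCD6 the siCTRL#2 libraries lay within or around the NT range, while TOMM20 was somewhat below it in 3 of 4 siCTRL#2 libraries. Over the 10 genes, the log2 fold changes with siCTRL#1 ran from -2.08 (MET) to -1.18 (WSB1), with siVPS4A#2 from -2.15 (MET) to -0.91 (BANF1), and with siCTRL#2 from -0.35 (ITPRID2) to 0.42 (WSB1). None of the 10 was called between siCTRL#2 and NT, and each was lower with siCTRL#1 than with siCTRL#2 (log2 -2.15 to -0.95, all called).

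Of all 553 genes with the word, 66.0% had a log2 fold change below 0 with siCTRL#1. These include the called genes on which the word was picked, in the same libraries, so this share is in part set by that choice. Over the 458 genes with the word that were not called in either direction it was 61.4%, against 49.9% of the 10935 such genes without it, and the medians were -0.0989 and 0.001. Over all 553 genes the median log2 fold change with siCTRL#1 was -0.17, against 0.01 for the 11748 genes without the word, and 15.2% against 2.96% were called lower. These values, and those per library that follow for siCTRL#1 and NT, are likewise in part set by the choice of the word. Expressed per library, as the median difference from NT of genes with the word less that of genes without it, siCTRL#1 replicates 1 to 5 gave -0.149, -0.140, -0.255, -0.163 and -0.180 on the log2 scale. NT replicates 1 to 4, each set against the other 3, gave 0.061, 0.007, -0.035 and -0.015. All siCTRL#1 libraries were thus below all NT libraries, and they remained so over the genes not called (-0.147 to -0.0726, against -0.0294 to 0.0556 in NT). The siVPS4A#2 libraries gave -0.135, -0.198, -0.179 and -0.206, and the siCTRL#2 libraries 0.065, 0.033, 0.005 and 0.010. Of the genes with the word 13.2% were called lower with siVPS4A#2, against 2.71% of those without it, and 7.41% with siCTRL#2, against 9.92%. The comparison of siVPS4A#2 with siCTRL#2, also added after seeing the data, has no library in common with siCTRL#1 against NT. Its calls are not fully separate, since all 38 libraries entered 1 fit with shared batch terms and spread. It called 679 of all genes lower (5.38%), 672 of them with a 3′ untranslated region. Among these 672 GACGTA again ranked first of 4096 words, present in 15.2% (against 4.496% of all genes). Of genes with the word 18.4% were called lower there, against 4.85% without. In siCTRL#2 against NT GACGTA ranked 1307th of 4096, and the first word was GCAACC (31.5% of 1206 lower genes against 22.7% of all).

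The share of genes with the word was then set beside recurrence, as a description. Of 172 genes lower with siCTRL#1 and siVPS4A#2 but not called lower with siCTRL#2, 57 held it (33.1%), whereas of 66 genes lower in all 3 comparisons 3 did (4.55%), close to the 4.496% of all genes. Of the genes lower with siCTRL#2 but not called lower with siCTRL#1, 32 of 1093 held it (2.93%). Among genes with 1 copy, the share called lower was 32.4% where the base before the word was C (11 of 34 genes), 16.9% for T, 13.04% for A and 9.09% for G, and 21.7% where the base after it was C, 16.8% for T, 15.6% for A and 7.53% for G. With 2 or more copies 6 of 25 genes (24.0%) were lower and none was higher. The word was also more frequent in the coding sequence of lower genes (10.4% against 6.24%). Median 3′ untranslated length was 1503 bases in lower, 1517 in higher and 1284 in all genes, and median GC content 41.0%, 47.5% and 42.9%. In a fixed window of the first 500 bases the word was in 8.31% of lower, 1.20% of all and 0 of 378 higher genes. The sequence of the siCTRL#1 strands was not used here, so whether either strand pairs with this word was not tested. The majority of lower genes, 348 of 432, did not hold it, among them SUSD2, DKK1, AKAP12 and ATG12.

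The genes called in the same direction in all 3 transfected conditions are described by their size of change. Among the 6 higher ones with the largest change in the weakest of the comparisons were ZEB1, KRTAP2-3, FZD9, SLC2A3 and VIM. ZEB1, a transcriptional repressor of epithelial genes, was at 2.70, 2.48, 3.71 and 3.79 in NT, 8.36, 10.9, 9.80, 6.60 and 11.4 in siCTRL#1, 7.96, 9.63, 11.4 and 8.98 in siVPS4A#2 and 7.30, 14.96, 16.9 and 12.8 in siCTRL#2. SLC2A3, the glucose transporter GLUT3, was at 45.1, 26.1, 42.8 and 72.1, 133, 78.1, 103, 121 and 128, 112, 71.002, 95.7 and 140.1 and 138, 174, 179 and 227. In both genes every transfected library but SLC2A3 in siVPS4A#2 replicate 2 exceeded the highest NT library. FZD9, a Wnt receptor, rose 2.34-fold with siCTRL#1 from 1.14, 1.65, 0.618 and 1.08, and KRTAP2-3, a keratin-associated protein with near-identical neighbours, 2.65-fold with overlapping groups (22.1, 9.44, 10.1 and 11.4 in NT and 20.9, 42.7, 46.8, 22.1 and 53.7 in siCTRL#1).

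The 6 corresponding lower genes were GGT5, LCN2, MRM1, CD44, ADGRE2 and ARL14EPL. CD44, the hyaluronan receptor, was at 251, 277, 212 and 224 in NT, 113, 136, 90.6, 103 and 120.03 in siCTRL#1, 113, 95.7, 81.2 and 71.8 in siVPS4A#2 and 108, 76.8, 73.8 and 87.8 in siCTRL#2, and thus lower in each of the 13 transfected libraries than in any NT library. ADGRE2, an adhesion receptor, was at 33.7, 26.3, 19.4 and 16.1 in NT and 13.9, 13.2, 5.07, 12.5 and 9.51 in siCTRL#1, and lower again in siCTRL#2 (3.58, 5.27, 4.67 and 2.51), with a log2 difference between the duplexes of 1.21 ± 0.26 (adjusted p = 0.000702, limma). GGT5 and MRM1 did not differ beyond the threshold between siCTRL#1 and siCTRL#2 (log2 -0.12 ± 0.21 and 0.51 ± 0.22, adjusted p = 0.748 and 0.0902, limma).

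**Figure D2:**
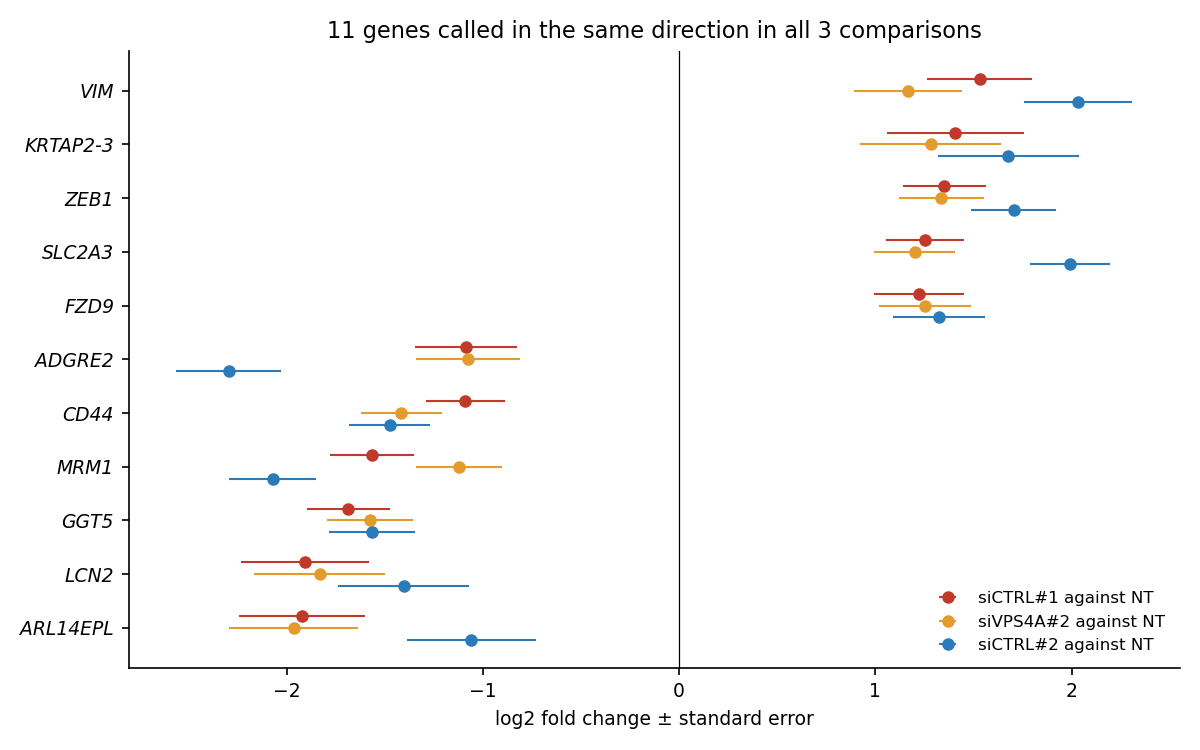
Log2 fold change against NT (x axis, point) with its standard error (bar) for 11 genes called in the same direction in all 3 comparisons, in siCTRL#1 (red), siVPS4A#2 (orange) and siCTRL#2 (blue). The points of a gene lie on the same side of 0, at -1.06 or beyond for the lower and 1.17 or beyond for the higher genes, and the 3 comparisons share the NT libraries.

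The RNA interference machinery was measured in full, with 19 of 19 listed genes, of which 2 were higher and 1 lower with siCTRL#1 (15.8% called, against 7.33% of all genes, median log2 fold change 0.13). DICER1, the nuclease that processes microRNA precursors, was at 8.82, 6.72, 9.40 and 8.02 CPM in NT and 18.9, 20.9, 21.97, 15.6 and 18.7 in siCTRL#1 (log2 1.15 ± 0.18, adjusted p = 3.61e-05, limma), and at 16.01, 20.9, 22.6 and 20.95 in siVPS4A#2 and 18.6, 14.3, 19.6 and 14.7 in siCTRL#2. TNRC6A, a GW182 scaffold that links Argonaute to deadenylases, was at 13.9, 21.4, 22.4 and 16.04 in NT and 33.3, 45.7, 43.9, 32.4 and 36.6 in siCTRL#1 (log2 0.995 ± 0.17, adjusted p = 0.000151, limma), and at 26.9, 27.6, 59.8 and 31.98 and 30.2, 42.1, 45.8 and 40.8 in the other transfected conditions. Each of the 13 transfected libraries was above all 4 NT libraries for both genes. HSP90AA1, the inducible cytosolic chaperone that assists Argonaute loading, fell from 1407, 2212, 2781 and 2601 to 1114, 1459, 1405, 1231 and 1443 (log2 -0.72 ± 0.16, adjusted p = 0.00288, limma), with NT replicate 1 inside the siCTRL#1 range, and was not lower with siCTRL#2 (log2 0.44).

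Interferon-stimulated genes were called in a minority. Of 34 measured members 5 were higher (14.7%, against 3.80% of all genes), none was lower and the list's median log2 fold change was 0.09. IFIT1, which binds foreign RNA ends, was at 2.56, 4.37, 5.57 and 5.74 in NT and 10.7, 13.9, 14.02, 10.9 and 12.99 in siCTRL#1 (log2 1.21 ± 0.29, adjusted p = 0.00548, limma). IFI6 was at 56.8, 64.5, 59.7 and 55.4 and 97.9, 94.6, 85.3, 105 and 108 (1.63-fold), PSMB9, an immunoproteasome subunit, was 1.76-fold higher and USP18, the ISG15 protease, 1.62-fold, and for these 4 genes the 2 groups were separate. IFIT1 alone among the 4 was also called with siCTRL#2, where it reached 12.9, 16.6, 14.001 and 14.3. Among 16 measured double-stranded RNA sensors and adaptors 1 was called (6.25%). ADAR and TRIM25, the most abundant members, were not called (log2 0.02 and -0.04). Of 23 NF-kB target genes CXCL1 was called higher and NFKB1 lower (8.70%, against 7.33% of all genes), both with calls that were lost without any 1 of 6 (CXCL1) or 7 (NFKB1) of the 9 libraries (adjusted p up to 0.143 and 0.0991, limma), and that of CXCL1 also without the replicate block (adjusted p = 0.0598, limma).

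Cholesterol genes lay mostly above NT. Of 25 genes of sterol synthesis and uptake 4 were called higher (16%, against 3.80% of all genes) and none lower, 24 had a log2 fold change above 0, and the median was 0.34 with siCTRL#1, 0.33 with siVPS4A#2 and 0.38 with siCTRL#2, against -0.003 for all genes with siCTRL#1. MVD, the decarboxylase of the mevalonate pathway, was at 36.6, 54.6, 67.5 and 61.2 in NT and 82.6, 78.8, 127, 80.7 and 81.4 in siCTRL#1 (log2 0.76 ± 0.20, adjusted p = 0.00943, limma), and 0.64 without NT replicate 1 (adjusted p = 0.0573, limma). PMVK, a kinase of the same pathway, was at 15.8, 22.8, 23.01 and 29.2 in NT and at 41.8, 33.1, 52.9, 39.04 and 38.6 in siCTRL#1. The groups were separate for both genes, but the call of PMVK (adjusted p = 0.0491, limma) was lost without any 1 of 7 of the 9 libraries (adjusted p up to 0.210). Of 15 genes of fatty acid synthesis and desaturation none was called (median -0.03), and SCD, the stearoyl-CoA desaturase, passed the p-value threshold (adjusted p = 0.0421, limma) but not the fold threshold (1.43-fold). In the group of lipid droplet and fatty acid oxidation genes (16 measured) PDK4, which inhibits pyruvate dehydrogenase, was lower, at 9.53, 8.85, 10.1 and 9.10 in NT and 4.85, 3.23, 4.56, 6.03 and 5.84 in siCTRL#1 (log2 -0.87 ± 0.18, adjusted p = 0.00122, limma).

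Of 35 measured lysosomal genes 3 were higher and none lower (8.57%, against 3.80% of all genes higher and 7.33% called in either direction), with a median of 0.13. SMPD1, acid sphingomyelinase, was at 2.42, 3.54, 2.84 and 3.14 in NT and 7.19, 7.06, 9.29, 7.75 and 6.59 in siCTRL#1 (log2 1.08 ± 0.22, adjusted p = 0.000927, limma), and CTSA, cathepsin A, was 1.63-fold higher (0.58 on the log2 scale, under the 1.5-fold threshold, without NT replicate 1). ATG12 was the only called gene among 24 of autophagy. Of 28 endocytic genes 3 were higher and 2 lower (17.9% called, against 7.33% of all genes, median 0.06), and of 30 ESCRT genes 1 was higher and 2 lower (10% called, median 0.10). The named members of these 2 lists, CLTB, EPN1, EEA1, FLOT2, CHMP3, SNF8 and CHMP4C, had absolute log2 fold changes of at most 0.76, and each call was lost without at least 1 library: EPN1 without siCTRL#1 replicate 4 (adjusted p = 0.0671, limma) and the others without any 1 of 3 to 6. The calls of CHMP3, SNF8 and CLTB were also lost without the replicate block.

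Ribosome biogenesis genes were shifted downward as a group. Of 34 measured 6 fell (17.6%, against 3.53% of all genes), none rose, 2 had a log2 fold change above 0, and the median was -0.45 with siCTRL#1, -0.34 with siVPS4A#2 and -0.12 with siCTRL#2. Their summed level was 6157 to 6447 CPM in NT and 4727 to 5142 in siCTRL#1, without overlap. RRS1, an assembly factor of the large ribosomal subunit, was at 131, 132, 143 and 111 in NT and 80.96, 49.2, 68.4, 78.9 and 51.5 in siCTRL#1 (log2 -0.96 ± 0.15, adjusted p = 5.76e-05, limma). DDX10, a nucleolar helicase, was at 178, 122, 121 and 126 and 70.4, 49.6, 49.001, 72.05 and 56.6 (log2 -1.16 ± 0.19, adjusted p = 8.45e-05, limma), and GNL3, nucleostemin, at 184, 174, 139 and 146 and 110.4, 108, 89.6, 101 and 92.6 (log2 -0.67 ± 0.15, adjusted p = 0.00281, limma). All 3 were near NT with siCTRL#2 (log2 -0.105 to -0.05), and RRS1 and DDX10 each hold 1 copy of GACGTA in the 3′ untranslated region while GNL3 holds none. Among lower genes described with other lists, HSP90AA1, PDK4, E2F2 and GINS3 also hold 1 copy each, whereas NFKB1, MYC, EPCAM and PDIA4 hold none. NIP7 lay just past the fold threshold (log2 -0.59), and without NT replicate 1, siCTRL#1 replicate 3 or siCTRL#1 replicate 5 it was between -0.56 and -0.50, and without the replicate block at -0.55. MYC, a transcription factor whose known targets include this group, fell from 729, 750.2, 492 and 702 to 432, 338, 234, 443 and 313 (log2 -0.92 ± 0.15, adjusted p = 8.95e-05, limma), with separate groups, and was lower with siVPS4A#2 (log2 -0.76) and siCTRL#2 (log2 -0.75) as well. Whether the fall of MYC bears on the ribosome biogenesis genes was not tested.

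**Figure D3:**
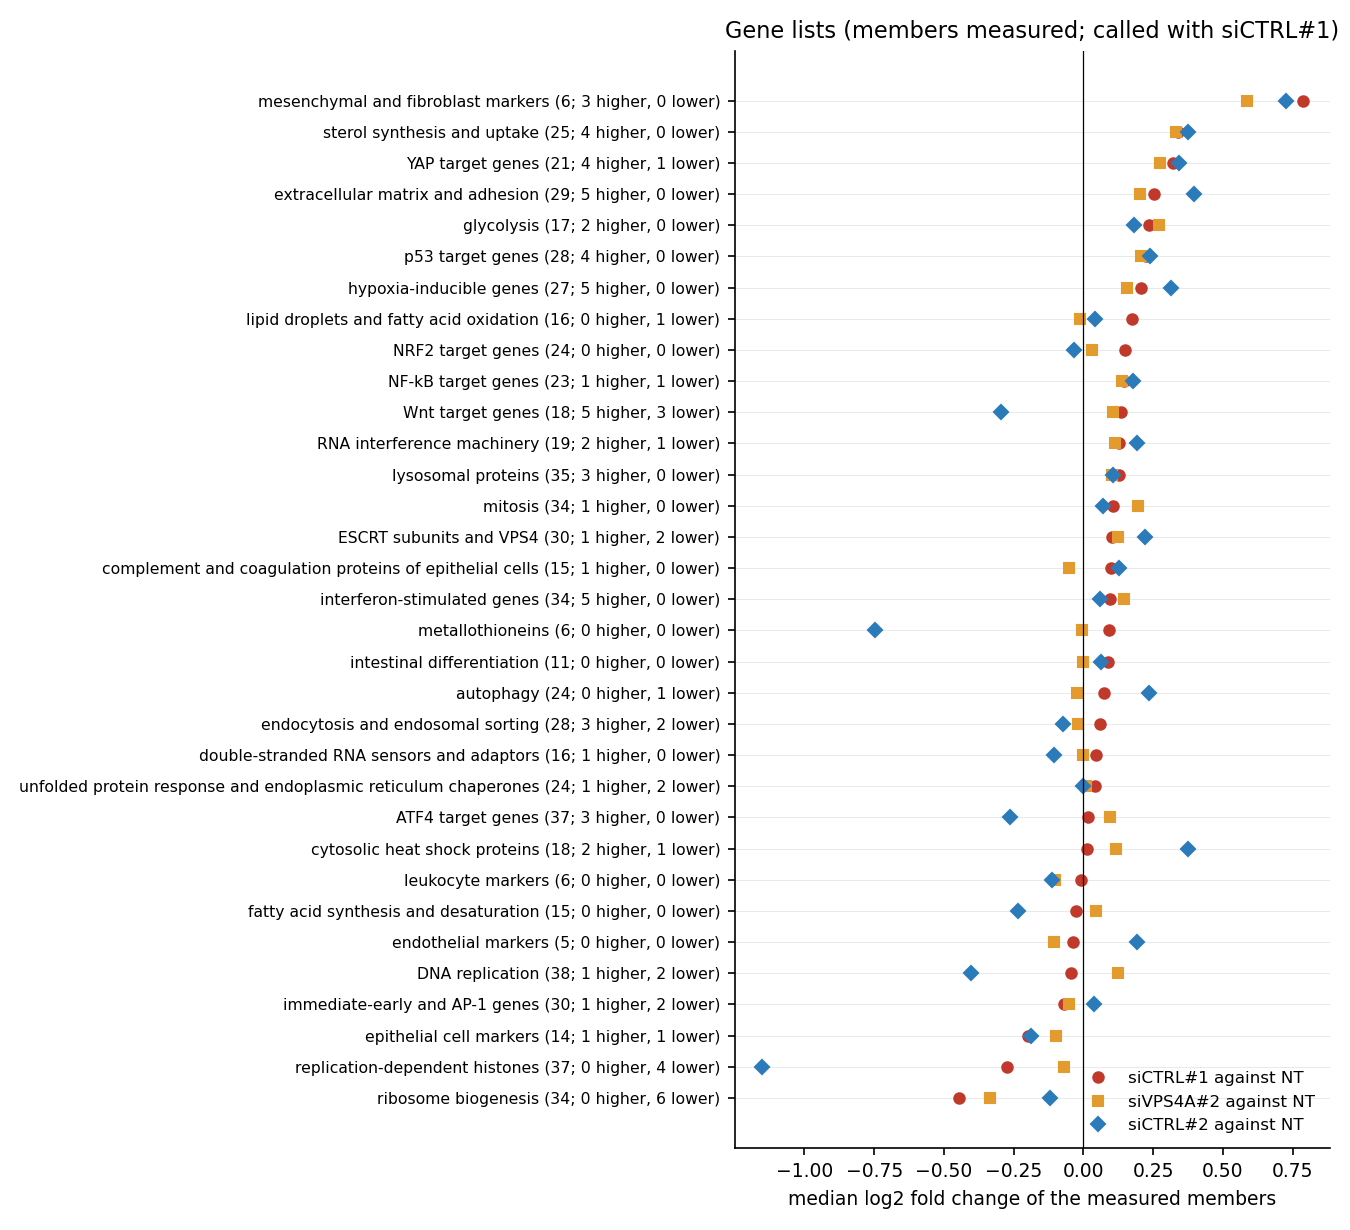
Median log2 fold change against NT (x axis) of the measured members of 33 gene lists (y axis, with the number measured and the number called higher and lower with siCTRL#1), for siCTRL#1 (red circles), siVPS4A#2 (orange squares) and siCTRL#2 (blue diamonds). With siCTRL#1 ribosome biogenesis lies lowest at -0.45 and mesenchymal and fibroblast markers highest at 0.79.

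Among cell cycle genes the histones lay mostly below NT. Of 37 replication-dependent histones, short-lived intronless transcripts of S phase, 4 were lower (10.8%, against 3.53% of all genes) and none higher, and 31 had a log2 fold change below 0 (median -0.27), whereas 32 were lower with siCTRL#2 (median -1.15). H2BC14 was at 232, 275, 343 and 197 in NT and 86.3, 91.6, 137, 83.2 and 104 in siCTRL#1 (log2 -1.33 ± 0.30, adjusted p = 0.00273, limma), and H3C3 at 7.26, 2.83, 2.60 and 2.38 and 1.17, 0.718, 0.676, 1.44 and 1.51 (log2 -1.15 ± 0.20, adjusted p = 0.000207, limma, and log2 -0.88 without NT replicate 1). Both were lower still with siCTRL#2, by 1.205 and 0.59 on the log2 scale (both called), and histone genes are near-identical so that their reads may be shared. H3C12 and H2AC12 also were called (log2 -0.75 and -0.65), and lost the call without any 1 of 4 or 7 of the 9 libraries (adjusted p up to 0.0700 and 0.0793, limma). Of 38 DNA replication genes 1 was higher (MCM5) and 2 lower (E2F2 and GINS3), 7.89% against 7.33% of all genes. MCM5, a subunit of the replicative helicase, was at 55.6, 129, 148 and 146 in NT and 204, 114, 269, 196 and 131 in siCTRL#1, and its call was lost without any 1 of 6 libraries and without the replicate block (adjusted p = 0.213, limma). E2F2 was at 25.9, 14.98, 15.96 and 14.7 and 6.36, 7.77, 6.76, 8.32 and 8.19 (log2 -1.06 ± 0.28, adjusted p = 0.0101, limma), and at log2 -0.84 without NT replicate 1 (adjusted p = 0.0747). GINS3 lost its call without any 1 of 3. Of 34 mitotic genes KIF20A, a kinesin of cytokinesis, alone was called (2.94% of the list, 1.71-fold higher, adjusted p up to 0.0891 without NT replicate 1 or siCTRL#1 replicate 3).

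Among 28 p53 target genes, a pathway intact in this line, 4 rose (14.3%, against 3.80% of all genes) and none fell (median 0.22, against 0.34 without NT replicate 1). PHLDA3, a p53-induced inhibitor of AKT, was at 11.2, 9.56, 8.41 and 8.67 in NT and 14.9, 16.03, 20.1, 18.8 and 11.6 in siCTRL#1 (log2 0.78 ± 0.17, adjusted p = 0.00251, limma), and TP53INP1 at 7.83, 6.84, 6.80 and 5.96 and 12.04, 14.5, 13.2, 11.8 and 11.5 (log2 0.78 ± 0.21, adjusted p = 0.0135, limma). CDKN1A, the cyclin-dependent kinase inhibitor p21, was at 496, 422, 409 and 379 and 632, 756, 836, 598 and 721 (log2 0.67 ± 0.18, adjusted p = 0.0123, limma), with adjusted p up to 0.0588 without NT replicate 4 or siCTRL#1 replicate 3. The groups were separate for all 3. BTG2, an antiproliferative cofactor, was 1.599-fold higher and lost its call without any 1 of 4 libraries.

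A minority of hypoxia-inducible and glycolytic genes was called. Of 27 hypoxia-inducible genes 5 rose (18.5% of the list, against 3.80% of all genes), none fell and 22 were not called. These called counts were the same with siVPS4A#2 and siCTRL#2, but the called genes were not all the same. ADM and EGLN3, described below, were called with siVPS4A#2 but not with siCTRL#2 (log2 0.57 and 0.51 there). With siCTRL#1 19 of the 27 genes had a log2 fold change above 0 and 8 below (median 0.20). The split was 19 and 8 with siVPS4A#2 (median 0.16) and 22 and 5 with siCTRL#2 (median 0.31). ADM, the vasodilator peptide adrenomedullin, was at 68.3, 101, 113 and 109.7 in NT and 189, 207, 266, 202 and 254 in siCTRL#1 (log2 1.15 ± 0.19, adjusted p = 8.45e-05, limma). EGLN3, an oxygen-sensing prolyl hydroxylase, was at 6.54, 13.7, 11.998 and 17.7 and 27.9, 17.2, 24.7, 23.3 and 28.8 (log2 0.97 ± 0.22, adjusted p = 0.00316, limma), with slightly overlapping groups, and PFKFB4, a regulator of glycolytic flux, at 10.5, 14.4, 19.5 and 18.8 and 36.3, 28.3, 31.6, 27.1 and 42.5 (log2 0.95 ± 0.22, adjusted p = 0.00452, limma). Of 17 glycolytic genes 2 rose, ALDOC 1.63-fold and ENO2 1.59-fold, and none fell (11.8%, against 3.80% of all genes higher and 7.33% called in either direction, median 0.24). Without NT replicate 1 ENO2 was at 0.56 on the log2 scale, under the fold threshold.

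Lists of stress and growth programs ranged from none called to 44.4% called, against 7.33% of all genes. Of 37 ATF4 targets NUPR1, JDP2 and CHAC1 were higher (8.11% of the list, median 0.02, and -0.12 without siCTRL#1 replicate 4), and all 3 varied with the batch: CHAC1, a glutathione-degrading enzyme, was at 133, 97.1, 33.3 and 58.7 in NT and 332, 133, 64.04, 294 and 66.7 in siCTRL#1, overlapping, though higher in each of the 4 batches. NUPR1 was at log2 0.95 (adjusted p = 0.0671, limma) without siCTRL#1 replicate 4 in place of 1.35, and the calls of JDP2 and CHAC1 were also lost without that library, among others, and those of all 3 without the replicate block (adjusted p = 0.144, 0.158 and 0.413, limma). Of 24 unfolded protein response genes and chaperones PDIA4, a disulfide isomerase, fell from 119.8, 122, 144 and 115 to 55.2, 71.2, 64.5, 61.1 and 68.5 (log2 -0.99 ± 0.16, adjusted p = 5.72e-05, limma), while SDF2L1 was higher and SEL1L lower with calls that were lost without any 1 of 5 libraries (12.5% of the list called). Of 18 cytosolic heat shock genes 3 were called (16.7%), HSP90AA1 lower and HSPB1 and DNAJB1 higher. HSPB1, a small heat shock protein, rose from 811, 1304, 1383 and 1030 to 1906, 2358, 2785, 1984 and 2270 (log2 1.04 ± 0.22, adjusted p = 0.00174, limma) but fell with siCTRL#2 (log2 -1.498 ± 0.23, adjusted p = 5.61e-06, limma), and DNAJB1, an HSP40 co-chaperone, was 1.61-fold higher. None of 24 NRF2 targets and none of 6 metallothioneins was called (medians 0.15 and 0.09). Among 30 immediate-early and AP-1 genes 1 was called higher, FOSL2 (log2 0.88), and 2 lower, MYC and EGR2 (10% of the list). EGR2 was at log2 -0.997, and without the replicate block its call was lost (log2 -0.98, adjusted p = 0.0830, limma). Of 21 YAP targets 4 rose and 1 fell (23.8% called, median 0.32): CCN2, connective tissue growth factor, went from 13.4, 6.84, 5.57 and 8.45 to 16.7, 26.7, 19.3, 18.1 and 25.2 (log2 1.26 ± 0.20, adjusted p = 7.95e-05, limma), LATS2, a Hippo kinase, from 13.7, 15.1, 12.2 and 12.7 to 29.1, 36.8, 37.5, 22.7 and 32.4 (log2 1.13 ± 0.16, adjusted p = 1.19e-05, limma), and AMOTL2 rose 1.67-fold, while ANKRD1 was at the detection floor in 2 NT libraries and lost its call without any 1 of 3 libraries. Of 18 Wnt targets 5 rose and 3 fell (44.4% called), among them RNF43, a negative regulator of the pathway (1.63-fold higher), CCND1, cyclin D1 (1.65-fold higher), CD44 and MYC. The median of this list was 0.13, and 0.03 without NT replicate 1. With siVPS4A#2 2 of the 18 rose and 3 fell, and with siCTRL#2 0 rose and 5 fell (median -0.30). RNF43 and CCND1 were higher with siCTRL#1 than with siCTRL#2 by 1.12 and 1.06 on the log2 scale (both called).

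Adhesion and lineage genes moved in part. EPCAM, the epithelial cell adhesion molecule, fell from 629, 581, 650.4 and 567 in NT to 384, 304, 329, 388 and 323 in siCTRL#1 (log2 -0.82 ± 0.12, adjusted p = 1.61e-05, limma), and was at 344, 292, 320.4 and 297 in siVPS4A#2 and 330.4, 337, 367 and 371 in siCTRL#2. KRT8, an epithelial keratin, went the other way, from 1004, 1282, 1099 and 1102 to 1615, 1397, 2544, 1673 and 1439 (log2 0.65 ± 0.15, adjusted p = 0.00489, limma), and was at 0.51 on the log2 scale without siCTRL#1 replicate 3. EPCAM and KRT8 were the 2 called genes of the 14 epithelial markers (14.3%, against 7.33% of all genes, median -0.20). Of the 6 measured mesenchymal and fibroblast markers 3 rose with siCTRL#1 (50%, against 3.80% of all genes), and the same 3 rose in all 3 comparisons: ZEB1, VIM and COL1A1. VIM, vimentin, was at 3.41, 4.96, 7.42 and 5.20 in NT and 10.04, 21.5, 25.9, 9.19 and 36.9 in siCTRL#1 (log2 1.53 ± 0.27, adjusted p = 0.000199, limma), and at 6.68, 13.7, 12.98 and 21.1 in siVPS4A#2 and 14.6, 24.04, 27.2 and 34.02 in siCTRL#2. COL1A1, a fibrillar collagen chain, was at 7.83, 13.3, 14.3 and 13.8 and 23.6, 31.2, 28.4, 15.5 and 30.4 (log2 0.89 ± 0.25, adjusted p = 0.0157, limma), with adjusted p up to 0.0858 without NT replicate 1, siCTRL#1 replicate 2 or siCTRL#1 replicate 3. The other 3, ACTA2, PDGFRB and SNAI2, were not called, and PDGFRB stayed under 1 CPM on average. With siCTRL#1 4 of the 6 had a log2 fold change above 0, and 2, both among these 3, below 0. Of the 17 markers 11, DCN, LUM and PDGFRA among them, were not among the genes analysed. The part of other cells in these values was not tested. Of 29 extracellular matrix and adhesion genes 5 rose (17.2%, against 3.80% of all genes) and none fell (median 0.25), including the fibronectin receptor chains ITGA5, at 84.4, 102, 88.7 and 97.1 in NT and 154, 223, 143, 145 and 205 in siCTRL#1 (log2 0.83 ± 0.21, adjusted p = 0.00658, limma), and ITGB1 (1.702-fold, adjusted p = 0.0115, limma). LAMA5 and THBS1 lost their calls without any 1 of 4 (LAMA5) or 2 (THBS1) libraries and without the replicate block (adjusted p = 0.0740 and 0.0934, limma), and THBS1 fell with siVPS4A#2 (log2 -1.23 ± 0.19, adjusted p = 5.82e-05, limma). CD46, a complement regulator, was 1.93-fold higher as the only called gene of 15 in the complement and coagulation list (adjusted p = 0.0571 without NT replicate 4), and none of 11 intestinal differentiation genes was called, with CDX2 at 29.6, 38.2, 38.2 and 31.5 in NT and 41.5, 34.2, 39.4, 40.2 and 31.7 in siCTRL#1.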

How the data were processed

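RNA of HCT116 cells had been amplified by the authors with an AmpliSeq transcriptome panel, sequenced on an Ion Proton, aligned to hg19 panel transcripts and counted per RefSeq transcript with HTSeq 0.6.0 (version per the submitters' processing notes). The deposited signal of a gene is its share of the library's reads over the listed genes, so that each library sums to 1, and how counts became shares is not given in the sources used here. In each library the shares were whole multiples of 1 step, so whole reads were recovered (99.97% of testable values lay within 0.1 of a whole number). Libraries of the whole series held 669257 to 11035293 reads, and this number limits the precision of low genes. The lowest total was that of siVPS4A#1 replicate 2, a library of another duplex against VPS4A that entered the shared fit.

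Counts were scaled with TMM (factors 0.868 to 1.11) in edgeR 4.0.16, and log2(CPM + 1) was fitted with limma 3.58.1 (trend) over all 38 libraries, with the 9 conditions and the replicate number, which labels the batch, as a block. Same-numbered NT and siCTRL#1 libraries deviated together in 3 of 4 pairs (r = 0.344, 0.230, 0.372 and -0.160 over 9555 genes at 5 CPM or more). On simulated counts for siCTRL#1 against NT with all 12627 genes, 82% of 2-fold and 99% of 3-fold changes were called in the right direction, with 5 wrong calls among 12427 unchanged genes. The simulated reads were drawn independently with an assumed spread, without a batch effect or a deviating library. Genes with few reads in NT were not among those changed. The 5 wrong calls therefore do not give the rate of wrong calls in the real libraries. Alternatives were DESeq2 1.42.0, edgeR's quasi-likelihood test, other scalings, filters and thresholds, and fewer conditions. Each library of the 4 conditions described, and siVPS4A#1 replicate 2, was also left out in turn.

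Symbols came from RefSeq (12474 genes) or the study's supplement (9), and 144 genes had none. Named genes were the 12 largest called changes per direction with separate groups and a symbol, up to 4 called members per list by adjusted p (the 2 most abundant members where fewer than 2 were called), VPS4A, VPS4B, the 6 strongest recurring genes per direction, and, chosen after their values were seen, the genes with printed windows, ACTA2, PDGFRB and SNAI2. The members and lists were chosen with earlier results of these data known. Sequences were read from GRCh37 with GENCODE annotation. Some genes that this rule would name are not reported here.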

Additional observations from a re-analysis of the deposited data

Results flagged for a closer look

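A library was singled out where its gap to the nearest library of its group, as a share of the group's range on the log2 scale, passed Dixon's 95% value. Among 260 gene-and-group sets of the named genes 17 did, about the 1 in 20 that chance flags. Of these 17, NT replicate 1 gave 6: CXCL1 at 1.71 CPM (0.759 to 0.866 in the other NT libraries), H3C3 at 7.26 (2.38 to 2.83), E2F2 at 25.9 (14.7 to 15.96), MCM5 at 55.6 (129 to 148), DDX10 at 178 (121 to 126) and COL1A1 at 7.83 (13.3 to 14.3). NT replicate 3 stood apart for MYC, at 492 (702 to 750.2 in the others), and OSTM1, at 15.1 (8.78 to 9.39). siCTRL#1 replicate 3 stood apart for MVD at 127 (78.8 to 82.6), SQSTM1 at 816 (540.2 to 600.1), SERPINE2 at 37.2 (62.0 to 68.1), CHMP3 at 35.8 (57.2 to 61.6) and GGT5 at 0.338 (0.941 to 1.17). siCTRL#1 replicate 5 did so for GINS3 at 9.70 (7.27 to 7.86) and ALDOC at 295 (207 to 224), and siCTRL#1 replicate 2 for ENO2 at 122 (168 to 184) and BANF1 at 21.8 (27.1 to 28.6). For MCM5 the NT replicate 1 value enlarged the difference from siCTRL#1, since the log2 fold change without that library was 0.46, and for E2F2 it enlarged the fall, which was -0.84 without it.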

How the results depend on the processing

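The 4 counts of called genes, 926 between siCTRL#1 and NT, 799 between siVPS4A#2 and NT, 1883 between siCTRL#2 and NT and 175 recurring in all 3, were within 1.5 times of these values under other scalings, filters, tools and fits, except as follows. A fold change of at least 2 gave 161, 135, 597 and 21, and limma's treat beyond 1.5-fold gave 25 (9 higher and 16 lower), 12, 304 and 1, both of which ask for more by construction. Without a fold threshold 308 genes recurred. Leaving out in turn each library of the conditions compared gave 697 to 988, 504 to 795, 1652 to 1860 and 125 to 184 genes. Leaving out siVPS4A#1 replicate 2, the library with the fewest reads of the series, gave more, with 1143, 1029, 2093 and 231 genes. The count for siVPS4A#2 moved by more than 1.5 times without NT replicate 1 (523), siVPS4A#2 replicate 3 (513) or siVPS4A#2 replicate 4 (504), and fewer libraries entered those fits. DESeq2 called 1227, 1087, 2306 and 257 genes and edgeR 1176, 1061, 2314 and 251. Without the replicate block 805, 624, 1767 and 145 genes were called, and 94 of the 106 called genes among the 130 named kept their call. Those that lost it were CXCL1, MCM5, NUPR1, JDP2, CHAC1, EGR2, NIP7, LAMA5, THBS1, CHMP3, SNF8 and CLTB. In the fit of the 2 conditions alone siCTRL#1 replicate 5 had no partner and carried no weight in the blocked comparison (1224 genes).

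Of the 106 named calls, 73 were kept without each of the 9 NT and siCTRL#1 libraries, and 105 were also made by both DESeq2 and edgeR, the exception being NIP7 (log2 -0.58 in DESeq2). The median log2 fold change of genes with GACGTA stayed between -0.20 and -0.11 over the other fits, was -0.0989 over the genes not called between siCTRL#1 and NT, and the share of lower genes with the word anywhere in the 3′ untranslated region between 15.2% (no fold threshold) and 43.8% (treat). The median of the NF-kB list was 0.15 but 0.50 with DESeq2 and 0.44 with a pseudocount of 0.1, and that of the mesenchymal list 0.79 but 1.30 and 1.26 in turn. The cause of these shifts was not tested. Depth limits genes with few reads most.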

Other observations

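Among the 476 genes higher with siCTRL#1 that had a 3′ untranslated region, the 6-base word most in excess was GGGACC, in 42.6% of them against 28.0% of all 12301 genes, followed by CCCCCG (25.2% against 15.1%), GGGCCG (23.3% against 13.999%), CAGCGA (16.6% against 9.14%) and CTCCCC (58.6% against 42.9%). The median GC content of these regions was 47.5%, against 42.9% over all genes. Like the word of the lower genes, these were picked as the most extreme on the genes they describe and carry no test.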
